A study of Glycine max and Glycine soja with 189 samples.

Results

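Soybean plants that had spent 5 days in short days after growing in long days (LD-SD) were compared with plants kept in short days throughout (SD), at the night time point T5 (22:30). The comparison used 20 LD-SD and 21 SD libraries of the 189 RNA sequencing libraries in the series, paired by genotype, and it asked which transcripts had not yet come to the SD level, or had gone beyond it. All libraries of both groups at T5 were taken except 1 LD-SD library of L92-1195 that stands apart from the rest and carries the letter B, which the sample records do not list for that group. The records list a library D there, for which no values carry that letter. Whether B and D are the same library is not stated. The 21 libraries from plants of the same age kept in long days (LD) at T5 gave the LD level. Plants were not sampled at the time of the shift, so the level from which LD-SD plants started is not known.

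The plants were 7 genotypes: the cultivars Clark and Williams 82, the wild soybean *Glycine soja*, and the near isogenic lines L65-3366, L66-432, L74-441 and L92-1195. Clark is described as *e1E2E3E4e5E7*. The lines carry *E1*, *e2*, *e3*, and *e3* with *E5*, respectively, in place of the Clark alleles, so each stands for its alleles through a single line. *E2* is listed for Williams 82 and no alleles for *G. soja*. SD plants had 10 h of light a day and LD plants 16 h, while LD-SD plants had 16 h for 21 days and then 10 h for 5 days. All were sampled at 26 days. At T5 the SD and LD-SD plants were in the dark and the LD plants were still in the light, so day length and light at harvest cannot be told apart in any comparison with LD. The sample records name the first trifoliate and the methods name the whole shoot above the cotyledon, so the tissue is uncertain, and no marker list could be applied to it because the transcripts carry no gene descriptions. In bulk tissue, fewer cells of a type and less RNA per cell cannot be told apart.

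Soybean is a short-day plant, in which long nights measured in the leaf promote flowering. The signal that leaves the leaf is florigen, encoded by relatives of the Arabidopsis gene *FLOWERING LOCUS T* (*FT*), and in Arabidopsis *FT* is activated by CONSTANS, a B-box transcription factor. Soybean has a family of CONSTANS-like genes (*GmCOL*s), many as pairs left by genome duplication, and its maturity (*E*) loci delay flowering in long days.

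Recorded reads lay between 6.13 and 17.2 M in the LD-SD libraries and between 8.06 and 17.6 M in the SD libraries (M, mega). The mapped reads recovered from the steps of the low values were 5.37 to 15.2 M in LD-SD and 7.08 to 15.6 M in SD. Another 5 libraries are doubtful. For L74-441 replicates B and C and L66-432 replicate B, all LD-SD, transcripts that separate pairs of genotypes went against the label. On 40 transcripts that separate L74-441 from L92-1195, with 0 at the L92-1195 level and 1 at the L74-441 level, the L74-441 libraries lay at 0.024 and 0.026. On 14 transcripts that separate L66-432 from L74-441, the library labelled L66-432 replicate B lay at 0.027. *G. soja* replicate A of LD-SD and L66-432 replicate B of SD correlated least with the libraries of their own photoperiod, with a median r of 0.888 and 0.898 against a median of 0.971 over all libraries at T5. The other *G. soja* libraries at T5 were also below that median, between 0.917 and 0.956, so *G. soja* replicate A stands less far apart from its own genotype. Values without these 5 libraries are given where the result rests on them.

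The florigen genes were above the LD level but still well below SD after 5 short days. *GmFT2a* (Glyma16g26660.1) was between 0.106 and 6.57 RPKM in LD-SD, with a median of 2.56. In SD it was between 6.01 and 27.3 RPKM, with a median of 16.5. In LD it was at most 0.781 RPKM, with a median of 0.108. The LD-SD and SD ranges met only at 1 library, Clark replicate C, and the other 19 LD-SD libraries lay below every SD library. The mean was 2.51 ± 1.58 RPKM (SD, n = 20) in LD-SD and 15.8 ± 4.93 (n = 21) in SD, 6.28 times as high. On the log2(RPKM + 1) scale, averaged over genotypes, LD-SD minus SD was -2.34 ± 0.15 (standard error; limma, adjusted p = 3.41e-29). The difference was negative and passed the test in each of the 7 genotypes.

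The genotype means of *GmFT2a* spread around this average, but the spread did not pass the F-test over all transcripts (limma, adjusted p = 0.395). Clark was highest in LD-SD at 4.56 ± 1.81 RPKM (n = 3), against 13.8 ± 3.63 in SD, a log2 difference of -1.43 ± 0.38. *G. soja* was lowest at 0.864 ± 0.969 RPKM, against 16.4 ± 4.38 in SD, a log2 difference of -3.31 ± 0.38. The 3 *G. soja* libraries held 0.106, 1.96 and 0.531 RPKM, the first being the doubtful replicate A.

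*GmFT5a* (Glyma16g04830.1), the other florigen gene measured, had come further. It lay between 1.66 and 11.4 RPKM in LD-SD (median 4.81) and between 8.48 and 21.8 in SD (median 13.7), while the LD median was 0.386. Of the 20 LD-SD libraries, 17 were below every SD library. LD-SD minus SD was -1.29 ± 0.14 on the log2 scale (limma, adjusted p = 1.00e-13), negative in all 7 genotypes and past the test in 4 of them. On that scale LD-SD had covered 60.7% of the way from LD to SD for *GmFT5a* and 38.8% for *GmFT2a*. The 2 shares were not tested against each other. Clark and Williams 82 were highest in LD-SD, at 8.11 ± 2.93 and 8.05 ± 1.17 RPKM (n = 3 each), with log2 differences of -0.66 ± 0.37 and -0.98 ± 0.37 that were not called. L65-3366, the line with *E1*, was lowest at 3.93 ± 1.86 RPKM against 17.3 ± 4.15 in SD, a difference of -1.93 ± 0.37 (limma, adjusted p = 1.68e-04). L74-441, L66-432 and *G. soja*, which all include doubtful libraries, were close to it in LD-SD, at 4.01, 4.37 and 4.42 RPKM. The F-test over genotypes did not call *GmFT5a* (adjusted p = 0.761).

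The distance of *GmFT5a* from the SD level changed over the day. LD-SD minus SD was -1.98 at T1 (6:30) and -0.82 at T3 (14:30), so T5 lay 0.69 above T1 (limma, adjusted p = 0.0085) and below T3 by -0.47 (adjusted p = 0.0446). For *GmFT2a* the differences at T1 and T3 were -2.30 and -2.47, and T5 was not called different from either (adjusted p = 0.927 and 0.623).

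**Figure D1:**
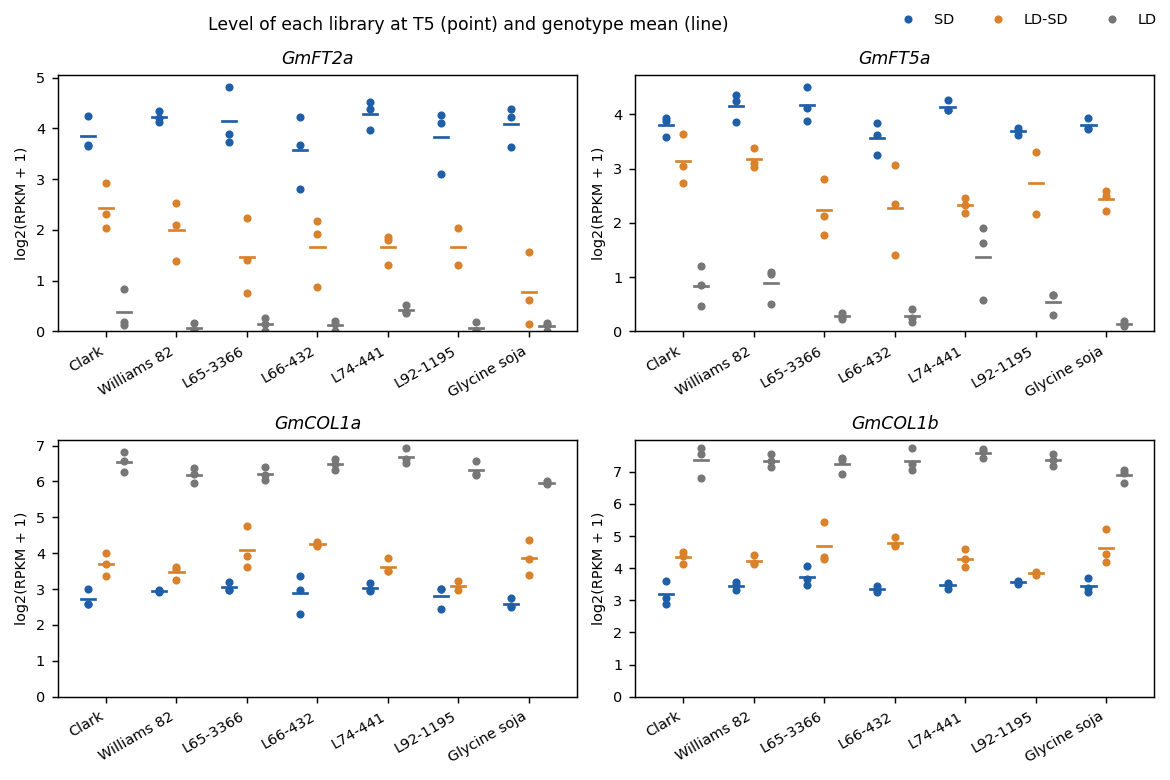
Level of *GmFT2a*, *GmFT5a*, *GmCOL1a* and *GmCOL1b* at T5 in each library, as log2(RPKM + 1), by genotype, for SD (blue), LD-SD (orange) and LD (gray), with a line at each genotype mean. In all 7 genotypes the LD-SD mean lies between the LD and SD means, nearer to SD for the *GmCOL*s.

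At T5 *GmCOL1a* and *GmCOL1b*, a pair of Clade I homeologs related to *CONSTANS*, had the opposite pattern, low in SD and high in LD. The paper reports that in SD the pair rises late in the night and peaks at dawn, above the LD level at that hour. The low SD level described here is thus that of T5, when only the LD plants were lit, and not of the whole night. In LD-SD the pair lay below the LD level at T5 without reaching that of SD. *GmCOL1a* (Glyma08g28370.1) lay between 6.84 and 26.1 RPKM in LD-SD (median 11.7), between 3.92 and 9.31 in SD (median 6.84) and between 60.5 and 120.9 in LD (median 79.6). In LD-SD, 16 of 20 libraries were above every SD library, and all were below every LD library. The LD-SD minus SD difference was 0.87 ± 0.09 (limma, adjusted p = 8.73e-14), with the same sign in all 7 genotypes.

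*GmCOL1b* (Glyma18g51320.1) lay between 12.9 and 42.1 RPKM in LD-SD (median 19.7), against 6.40 to 15.9 in SD (median 10.1). In LD its median was 162.4 RPKM. The difference was 0.94 ± 0.10 (limma, adjusted p = 9.04e-15), and 17 of 20 LD-SD libraries were above every SD library. Both genes had thus covered most of the distance, 75.1% for *GmCOL1a* and 75.5% for *GmCOL1b*. Without the 5 doubtful libraries the differences were 0.78 and 0.86. Among genotypes the distance from SD was greatest in L66-432, which holds 2 of the doubtful libraries, at 1.37 ± 0.25 for *GmCOL1a* and 1.44 ± 0.26 for *GmCOL1b*. It was smallest in L92-1195, at 0.28 ± 0.28 and 0.27 ± 0.29 with 2 LD-SD libraries. This spread was not called by the F-test (limma, adjusted p = 0.391 and 0.625).

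The excess of the pair over SD was larger at T5 than at the other time points, and *GmCOL1a* was also above SD at T3 (limma, adjusted p = 3.01e-07). At T1 LD-SD minus SD was -0.24 for *GmCOL1a* and -0.17 for *GmCOL1b*, and T5 differed from T1 by 1.11 in both (limma, adjusted p = 5.63e-11 and 2.58e-10). At T3 it was 0.54 and 0.09, and T5 lay above T3 by 0.33 and 0.86 (adjusted p = 0.0346 and 7.60e-08).

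Of all 61189 transcripts tested, 44.1% passed in LD-SD minus SD at T5, 17.6% higher and 26.5% lower in LD-SD, which is the background for the counts of family members. Among the 8 Clade I *GmCOL*s, 6 were higher in LD-SD, 1 was lower and 1 was not called, with a median log2 difference of 0.39 beside -0.03 over all transcripts tested. *GmCOL3b* was the most abundant of them, between 62.8 and 167.7 RPKM in LD-SD (median 87.1), between 53.5 and 105.1 in SD (median 64.7) and between 123.2 and 236.4 in LD (median 158.8), and 5 of 20 LD-SD libraries lay above every SD library. *GmCOL3a* (0.34 ± 0.07), *GmCOL3b* (0.46 ± 0.08) and *GmCOL4b* (0.44 ± 0.10) were higher than SD and lower than LD, having covered 75.8%, 65.5% and 59.0% of the way. *GmCOL4a* had a difference of 0.03 ± 0.12, which was not called (limma, adjusted p = 0.865).

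*GmCOL2a* and *GmCOL2b* were barely expressed and differed in sign. *GmCOL2a* was between 0.0968 and 0.865 RPKM in LD-SD and between 0.202 and 1.48 in SD, with medians of 5 and 8 reads, and LD-SD minus SD was -0.36 ± 0.07 (limma, adjusted p = 5.32e-06). *GmCOL2b* had medians of 8 and 5 reads and a difference of 0.27 ± 0.08 (adjusted p = 0.0043), which was no longer called without the 5 doubtful libraries (0.19, adjusted p = 0.0743). With a pseudocount of 0.1 in place of 1 the differences were -0.89 and 0.57. Among the 12 *GmCOL* pairs with both members tested, 10 had the same sign in both members, and *GmCOL2a* with *GmCOL2b* was the only pair with both called and opposite signs. How a read with more than 1 matching transcript was counted is not stated, so the values of such close copies are uncertain.

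Clade II held members that had gone beyond the SD level. Of its 6 *GmCOL*s, 2 were higher and 4 lower in LD-SD, with a median difference of -0.36. *GmCOL5b* was lower in SD than in LD by -0.80, and lower still in LD-SD. It lay between 0.743 and 4.05 RPKM in LD-SD (median 1.96) and between 1.99 and 7.63 in SD (median 3.01), against a median of 6.11 in LD. Of the 20 LD-SD libraries, 10 were below every SD library, and the difference of -0.46 ± 0.12 (limma, adjusted p = 6.17e-04) was negative in all 7 genotypes.

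Its homeolog *GmCOL5a* had a difference of -0.29 ± 0.11 (limma, adjusted p = 0.0212), also beyond SD, but this call was lost in 8 of 19 alternatives. *GmCOL6a* (-0.43 ± 0.10) and *GmCOL6b* (-0.46 ± 0.08) were below SD in all 7 genotypes, and their medians of 23.5 and 21.9 RPKM in LD-SD compare with 32.3 and 30.8 in SD and 27.2 and 23.2 in LD. At T3 both were above SD, by 0.67 and 1.03, and T5 differed from T3 by -1.10 and -1.49 (limma, adjusted p = 2.30e-11 and 4.49e-22). *GmCOL7a* had medians of 61.6 RPKM in LD-SD, 44.0 in SD and 34.4 in LD, and *GmCOL7b* had 48.0, 34.5 and 38.0, with overlapping ranges. *GmCOL7a* (0.32 ± 0.13) and *GmCOL7b* (0.38 ± 0.14) were above SD, with adjusted p = 0.140 and 0.0817 without the 5 doubtful libraries.

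In Clade III a minority of members differed from SD by the test. Of 12 members 10 were tested, and of these 1 was higher, 2 were lower and 7 were not called, with a median difference of -0.06, beside 34182 of 61189 transcripts not called overall. A missed call does not show that a member had reached SD. *GmCOL9a* had covered 28.6% of the way and did not differ from LD by the test either (limma, adjusted p = 0.581), and *GmCOL9a*, *GmCOL11a*, *GmCOL13a* and *GmCOL13b* were called in 3, 1, 2 and 3 of 19 alternatives. *GmCOL12b* was lower (-0.41 ± 0.10; limma, adjusted p = 5.41e-04), with medians of 2.27 RPKM in LD-SD and 3.34 in SD. *GmCOL12a* (-0.27 ± 0.11) and *GmCOL8b* (0.17 ± 0.06) passed the test and each lost the call in 7 of 19 alternatives. *GmCOL13a* had medians of 7.62 RPKM in LD-SD, 8.66 in SD and 2.70 in LD. *GmCOL13a* was 1.26 higher in SD than in LD and had covered 89.9% of that way in LD-SD, and LD-SD minus SD was -0.13 ± 0.09 (adjusted p = 0.269). *GmCOL10a* and *GmCOL10b* were below the mean of 0.1 RPKM needed for a test, with at most 2 reads in any LD-SD library.

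Of the 4 genes at or related to maturity loci, 1 was called, beside 44.1% of all transcripts tested. *GmPHYA3*, the phytochrome A photoreceptor gene at *E3*, was between 3.62 and 8.15 RPKM in LD-SD (median 6.40) and between 5.57 and 10.6 in SD (median 7.96). The ranges overlapped, with 6 LD-SD libraries below every SD library. LD-SD minus SD was -0.34 ± 0.07 (limma, adjusted p = 7.14e-05), and the LD-SD level was close to that of LD (difference -0.05, adjusted p = 0.668). *GmPHYA2*, the phytochrome A gene at *E4*, had a difference of 0.12 ± 0.07 (adjusted p = 0.124), and *GmGIa*, the GIGANTEA clock gene at *E2*, one of -0.05 ± 0.07 (adjusted p = 0.590). *GmPHYA2* had medians of 21.9 RPKM in LD-SD and 19.3 in SD, and *GmGIa* of 2.06 and 2.29, with overlapping ranges in both. For *GmPHYA2*, 12 of 20 LD-SD libraries were above every SD library, and it was called in 4 of 19 alternatives.

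*E1*, which encodes a repressor of the soybean florigen genes, was hardly detected at this hour. All 21 SD libraries were listed at 0, 17 of the 20 LD-SD libraries were at 0 and the other 3 held 1 read each, and no LD library had more than 3 reads. A difference was not detectable at this depth.

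**Figure D2:**
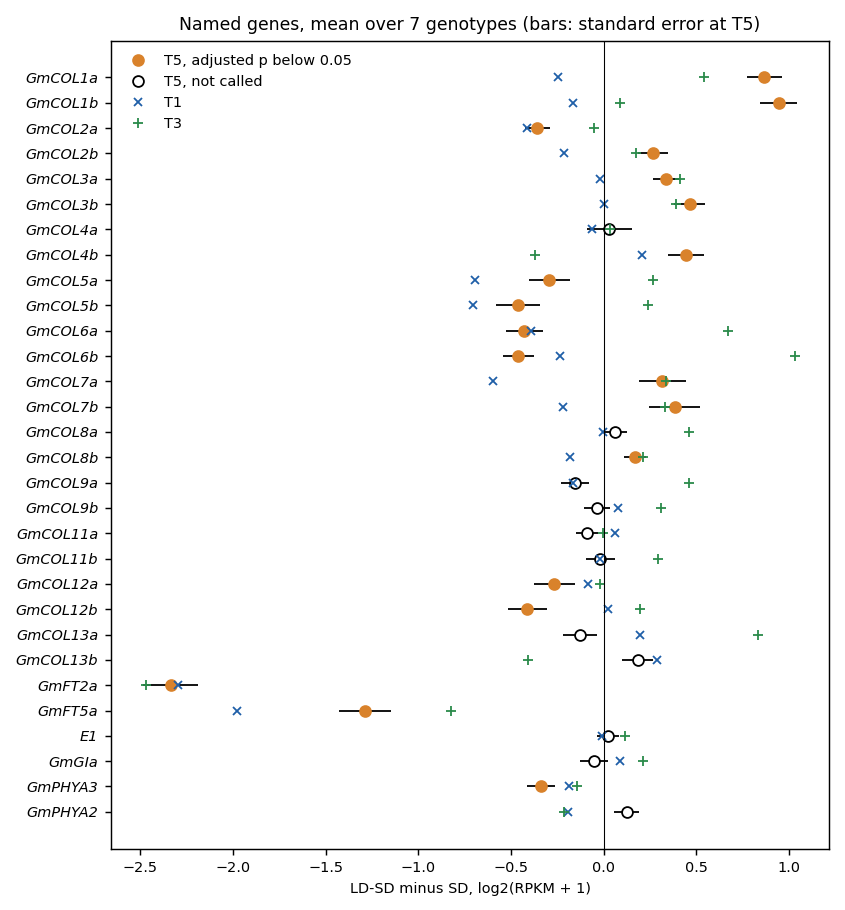
LD-SD minus SD, as the difference in log2(RPKM + 1) averaged over 7 genotypes, for the 30 genes tested among the 32 with a name, at T5 (circles with the standard error; filled where the adjusted p is below 0.05), T1 (crosses) and T3 (plus signs). Among these 30, *GmFT2a* and *GmFT5a* lie furthest below 0 at T5, and *GmCOL1a* and *GmCOL1b* furthest above it.

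Across the transcriptome, 27007 transcripts differed between LD-SD and SD at T5, 10794 higher and 16213 lower in LD-SD. With a median-of-ratios factor per library the split was 12772 higher and 12238 lower, so the direction of the small differences depends on the scaling. The differences were mostly small, with a median size of 0.28 among those called. A difference of 1 or more on the log2 scale was seen for 418 transcripts higher and 650 lower in LD-SD, and one of 3 or more for 10 and 12. The sign was the same in all 7 genotypes for 58.8% of the called transcripts, beside 27.9% of all tested. Calls rest on the mean of the same 7 differences, so a higher share among them is built in. Without the 5 doubtful libraries 23247 transcripts were called. The count of lower transcripts was 9449 without replicate C, and that of higher transcripts 7156 without replicate B.

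The called transcripts were sorted by where LD-SD lay relative to SD and LD. LD-SD was short of the SD level, between LD and SD, for 12866 of them (47.6%), of which 4832 also differed from LD by the test. It was past the SD level for 892 (3.30%), and 8 of those differed from SD by 1 or more. For 6652 (24.6%) LD-SD lay outside both on the LD side, but only 1019 of these also differed from LD by the test. The remaining 6597 (24.4%) differed from SD without a called difference between SD and LD. Of the 34001 transcripts called between SD and LD, 13591 (40.0%) were not called between LD-SD and SD. The SD libraries enter both contrasts. With SD replicate A set against LD and SD replicates B and C against LD-SD, the 4 classes held 7993, 1458, 3714 and 13078 transcripts. Without replicate C the class past SD held 367 transcripts, the class outside on the LD side 4136 and the last class 4114, and without replicate B the class short of SD held 8125 and that past SD 472. With the replicate letter as a random effect 375 transcripts were past the SD level.

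LD-SD had covered less than the full way for nearly all transcripts with a large photoperiod difference. For the 2152 transcripts called with an SD minus LD difference of 1 or more at T5, the median share of the way from LD to SD was 38.8%, with quartiles of 14.3% and 67.6%. The share was over 100% for 101 transcripts and under 0% for 241. With transcripts chosen on SD replicate A and the share measured against SD replicates B and C, the median was 50% over 1983 transcripts.

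Transcripts higher in SD than in LD had come less far than those lower in SD. The median share was 22.6% for the 990 transcripts higher in SD than in LD, and 54.2% for the 1162 lower in SD. Summed within each genotype, the share was 31.6% ± 19.3 (SD, n = 7 genotypes) for the first and 51.6% ± 6.81 for the second. It was smaller for the first in 6 of 7 genotypes, with a mean difference of -20.0 percentage points (exact permutation test over sign changes, two-sided, p = 0.0313). Transcripts and their direction were chosen on the same SD and LD libraries that enter the share. The share with disjoint SD libraries was not computed by direction, so the effect of this choice on the difference is not known. The exception was *G. soja*, at 66.6% and 54.1%. Without the 5 doubtful libraries it was 45.0% and 49.5%, and the difference was then negative in 7 of 7 genotypes (exact p = 0.0156, the smallest that 7 genotypes allow). The order was not particular to T5. Over transcripts chosen in the same manner at T3, the median shares were 41.9% for those higher in SD and 69.5% for those lower. At T1 they were 77.6% and 95.4%. The order at T3 and T1 was not tested.

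**Figure D3:**
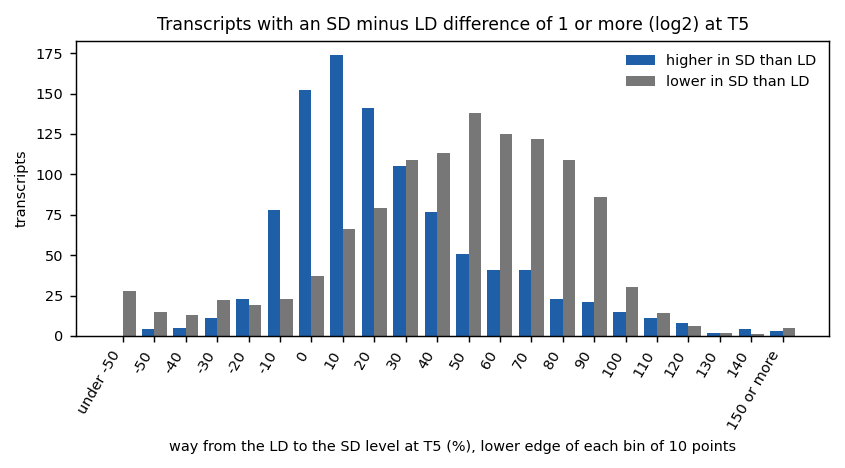
Share of the way from the LD to the SD level covered by LD-SD at T5, in bins of 10 percentage points, for the 990 transcripts higher in SD than in LD (blue) and the 1162 lower in SD (gray) that differ by 1 or more on the log2 scale. The blue bars peak between 10 and 20%, with 174 transcripts, and the gray bars between 50 and 60%, with 138.

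The share was lowest at T5. All groups were in the dark at T1 and in the light at T3, while at T5 only the LD plants were lit. Time of day and this difference in light cannot be told apart here. Over transcripts chosen in the same manner at each time point, the summed share of the way was 84.2% ± 1.71 (SD, n = 7 genotypes) at T1, 54.8% ± 7.24 at T3 and 42.3% ± 11.3 at T5. T5 was below T1 in 7 of 7 genotypes, with a mean difference of -42.0 ± 10.8 percentage points (exact permutation test over sign changes, two-sided, p = 0.0156, 0.0312 adjusted over 2 tests). It was below T3 in 6 of 7 genotypes, with a mean difference of -12.6 ± 10.1 points (exact p = 0.0313, adjusted 0.0313), and in 7 of 7 without the 5 doubtful libraries. The transcripts were again chosen on libraries that enter the share, and the share with disjoint SD libraries was not computed at T1 or T3. The exact test takes the 7 genotypes as independent, although the lines are near isogenic, so its p-values may be too small. The genotypes lay close together at T1, from 81.4% to 86.0%. At T5 they ranged from 31.8% in L66-432 to 57.7% in L92-1195, which had 2 LD-SD libraries, and 59.2% in *G. soja*. Without the 5 doubtful libraries L66-432 was at 40.8%, L74-441 at 49.4% and *G. soja* at 47.7%, and the range was 34.6% in L65-3366 to 57.7% in L92-1195. With its library lettered B, L92-1195 was at 35.7%.

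**Figure D4:**
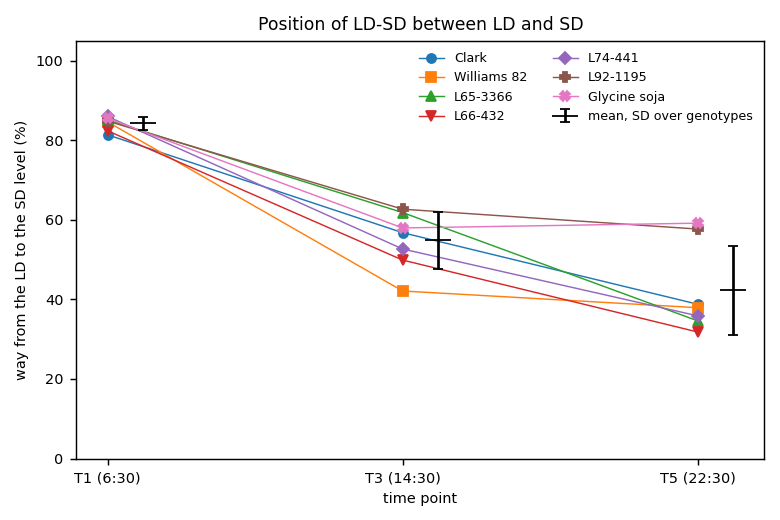
Summed share of the way from the LD to the SD level covered by LD-SD at T1, T3 and T5, for each genotype (colored symbols) with the mean and SD over the 7 genotypes (black). The genotypes lie between 81.4% and 86.0% at T1 and between 31.8% and 59.2% at T5, where the range without the 5 doubtful libraries, not drawn, is 34.6% to 57.7%.

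In single transcripts, LD-SD minus SD at T5 differed from that at T1 for 9298 (15.2%) and from that at T3 for 28014 (45.8%). A T5 difference that was larger than at both other time points in the same direction, by both tests, was found for 1833 transcripts higher and 2998 lower in LD-SD. Of these, 196 and 163 had a size of 1 or more. The count for T5 against T1 was 3733 without replicate C and 3430 with the replicate letter as a random effect, and the counts larger than at both other time points were not computed under these alternatives. At T1 17709 transcripts were called against SD, and at T3 32793.

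The difference between LD-SD and SD depended on genotype for 502 transcripts (0.82%; limma F-test), and *G. soja* was the genotype furthest from the other 6 for 426 of them. With *G. soja* left out, 19 transcripts passed the test. Without the LD-SD *G. soja* replicate A and SD L66-432 replicate B, 202 were called. The count was 117 without replicate B, 149 without replicate C, 320 without replicate A, 71 with T5 fitted alone and 1188 with the replicate letter as a random effect. Across the 61189 transcripts, the differences of each genotype correlated with the mean of the other 6 at r = 0.72 to 0.86 in the cultivars and lines and at r = 0.40 in *G. soja*, a description in which transcripts are not independent replicates. L66-432 had the most calls on its own, 8557, but 733 without its libraries in doubt, and L74-441 had 4743 and 378, with 1 LD-SD library left. L92-1195, with 2 LD-SD libraries, had 385.

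The transcripts furthest from the SD level carry no gene name in the deposited values. Glyma06g04740.1 was between 11.2 and 663.9 RPKM in LD-SD (median 178.2) and between 0.981 and 13.9 in SD (median 4.86), so that 19 of 20 LD-SD libraries were above every SD library. Its LD median was 82.3 RPKM, below that of LD-SD. The difference was 4.58 ± 0.35 (limma, adjusted p = 1.76e-22), compared with 0.82 at T1 and -0.80 at T3. The differences of T5 from T1 and from T3 both passed the test (adjusted p = 1.89e-09 and 5.66e-18).

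Glyma19g27060.1 was between 30.9 and 634.0 RPKM in LD-SD (median 240.3) and between 3.80 and 47.7 in SD (median 10.1), with 118.0 as the LD median. Its difference of 4.16 ± 0.39 at T5 (limma, adjusted p = 4.80e-17) was accompanied by 4.09 at T1 and 3.19 at T3. This transcript was thus above SD at each time point, and T5 was not called different from T1 or T3 (adjusted p = 0.956 and 0.146).

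Glyma15g06780.1 had the largest negative difference with the same sign in all 7 genotypes, though in *G. soja* it was only -0.63 ± 0.96. It was between 2.48 and 52.4 RPKM in 19 LD-SD libraries and 1278 RPKM in *G. soja* replicate A, with a median of 7.83, against 40.9 to 949.5 in SD (median 151.5). The highest SD value was that of L66-432 replicate B. The library at 1278 RPKM is 1 of the 5 in doubt, and the difference was -3.46 ± 0.37 with them and -3.37 without (limma, adjusted p = 2.22e-14 and 9.47e-13). Glyma03g20260.1 was between 0 and 28.5 RPKM in LD-SD (median 0.428) and between 1.73 and 143.6 in SD (median 20.9), and the LD median of 0.439 was close to that of LD-SD. Its difference was -3.41 ± 0.26 (adjusted p = 3.08e-23), and it had covered 6.25% of the way.

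**Figure D5:**
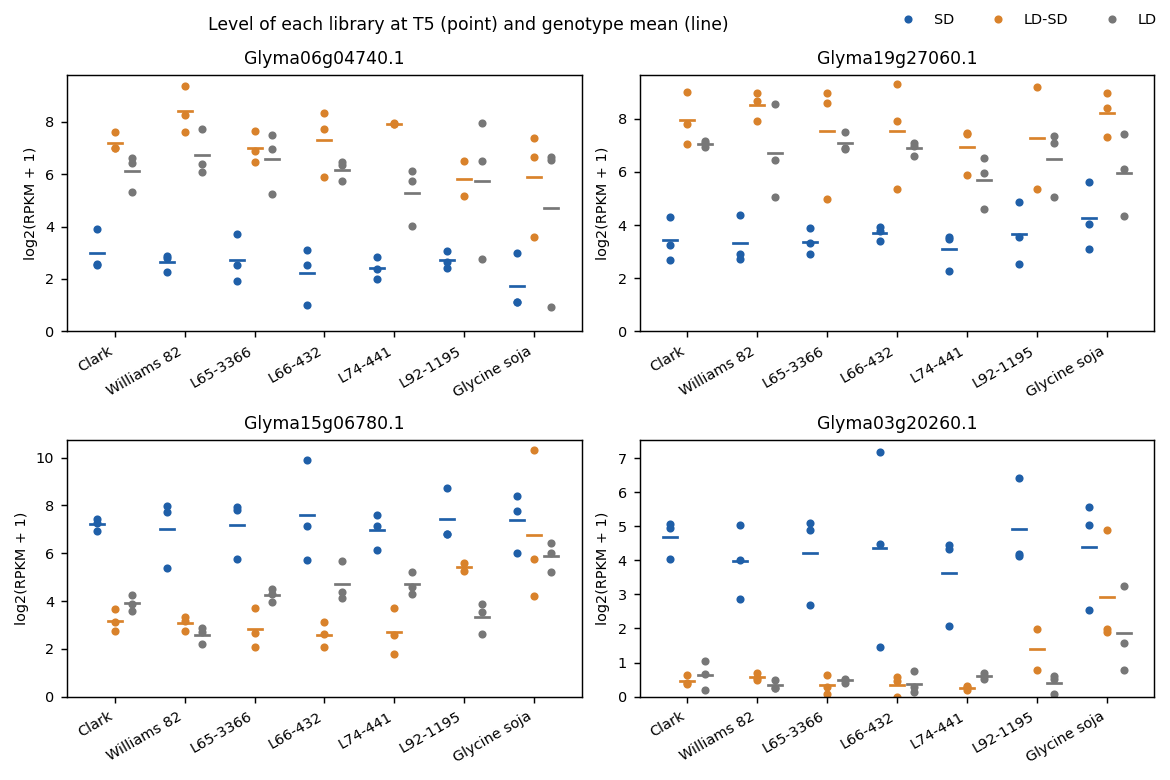
Level of the transcripts with the largest rises (Glyma06g04740.1, Glyma19g27060.1) and falls (Glyma15g06780.1, Glyma03g20260.1) in LD-SD against SD at T5 in each library, as log2(RPKM + 1), by genotype, for SD (blue), LD-SD (orange) and LD (gray), with a line at each genotype mean. For the rises the LD-SD means lie above the SD means in all 7 genotypes, and for the falls below them, least so in *G. soja*.

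Among the 50 transcripts with the largest rise, LD-SD lay outside both groups on the LD side for 47, and 44 also differed from SD by 1 or more in the same direction at T1. Among the 50 with the largest fall, LD-SD lay between LD and SD for 31 and outside on the LD side for 19. Both sets were chosen on the LD-SD minus SD difference that also places LD-SD, so a position far from SD is partly built in. How many of them differed from LD by the test was not counted. Only 2 transcripts were listed at 0 in every LD-SD library and above 0 in every SD library, and 0 transcripts were the reverse. Of 5968 loci with several transcripts tested and at least 1 called, 2 had transcripts called in both directions. Transcripts of a locus share sequence, and how reads were split among them is not stated.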

How the data were processed

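The authors sequenced 100-nt reads, checked their quality (FastX, FastQC), mapped them to the Williams 82 transcripts using Bowtie (version not given in the sources used here), counted them per transcript and deposited RPKM values (reads scaled to transcript length and to the mapped reads of the library) for each library, without pooling. The table holds 73320 transcripts, of which 1 with an infinite value in every sample was left out. RPKM values are not counts, so limma 3.58.1 (R 4.3.3) was run on log2(RPKM + 1), a scale that understates changes of low transcripts. The fit had a coefficient for each of 63 groups in 188 libraries and a trend on mean expression. Transcripts needed a mean of 0.1 RPKM or more, and calls had an adjusted p (Benjamini-Hochberg) below 0.05. Contrasts were averaged over 7 genotypes. The p-values measure the spread between these libraries.

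The share of the way is LD-SD minus LD divided by SD minus LD. It is a position between plants of the same age, not a course measured from the time of the shift. Mapped reads were recovered as the depth that makes low values whole reads, and 3 reads were taken as the floor. Groups came from the labels. The members, lists and tests were chosen with earlier results of these data known. Genes named in the text are the 32 with a locus in the paper, some read from its tree of homologs, plus the 2 largest rises and 2 largest falls with the same direction in all 7 genotypes. The reference gene table matched no deposited locus, so the lists by gene description were not used. On simulated data with 61189 transcripts, LD-SD minus SD at T5 recovered 98% of changes of 1 and 100% of changes of 2 on the log2 scale. Of the calls, 6.06% fell on unchanged transcripts. Only 100 transcripts were changed by each size, and 200 by 2 in *G. soja* alone, which were not counted as unchanged. No other difference between photoperiods or genotypes was simulated, so these rates may not hold for data in which 44.1% were called. The changes were placed only in transcripts with a mean log2(RPKM + 1) above 2, and the noise was independent between libraries. Recovery of lower transcripts, and the effect of deviations shared by a replicate letter, were thus not covered. The alternatives were other pseudocounts, filters, scalings, sets of libraries and fits, and a replicate block. Other computations used Python 3.11.15.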

Additional observations from a re-analysis of the deposited data

Results flagged for a closer look

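The difference between LD-SD and SD varied with the time of day for many of the named genes, by a limma test of T5 against another time point with an adjusted p below 0.05. T5 was above T1 for *GmCOL1a* and *GmCOL1b* (both 1.11 on the log2 scale), *GmCOL2b* (0.48), *GmCOL3a* (0.35), *GmCOL3b* (0.46), *GmCOL7a* (0.91), *GmCOL7b* (0.60), *GmCOL8b* (0.35), *GmFT5a* (0.69), *GmPHYA2* (0.32) and Glyma06g04740.1 (3.77). It was below T1 for *GmCOL12b* (-0.43). T5 was above T3 for *GmCOL1a* (0.33), *GmCOL1b* (0.86), *GmCOL4b* (0.82), *GmCOL13b* (0.59), *GmPHYA2* (0.34) and Glyma06g04740.1 (5.38).

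It was below T3 for *GmCOL2a* (-0.31), *GmCOL5a* (-0.56), *GmCOL5b* (-0.70), *GmCOL6a* (-1.10), *GmCOL6b* (-1.49), *GmCOL8a* (-0.40), *GmCOL9a* (-0.62), *GmCOL9b* (-0.35), *GmCOL11b* (-0.31), *GmCOL12b* (-0.61), *GmCOL13a* (-0.96), *GmFT5a* (-0.47), *GmGIa* (-0.26) and Glyma03g20260.1 (-2.22). Over all transcripts tested, 9298 differed between T5 and T1, 28014 between T5 and T3, and 502 between genotypes. The summed share of the way from LD to SD differed by -42.0 percentage points between T5 and T1 and by -12.6 between T5 and T3.

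The LD-SD library of L92-1195 with the letter B, which was left out of the main comparisons and entered 1 alternative only, held levels above every SD library at T5 for 12 of the named transcripts. It had 112.9 RPKM of *GmCOL1a*, 180.6 of *GmCOL1b*, 60.2 of *GmCOL3a*, 141.9 of *GmCOL3b*, 146.8 of *GmCOL4a*, 79.7 of *GmCOL4b*, 60.8 of *GmCOL5a* and 10.8 of *GmCOL5b*. It also had 0.860 RPKM of *E1*, 49.8 of *GmGIa*, 23.2 of Glyma06g04740.1 and 494.7 of Glyma19g27060.1. Its *GmFT2a* level of 11.6 RPKM was within the SD range. Among group means of its genotype it correlated best with LD-SD at T3 (r = 0.948) and less with LD-SD at T5 (r = 0.894). The cause was not tested.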

How the results depend on the processing

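Of 34 named transcripts tested, 23 were called, beside 44.1% of all transcripts tested. Of these 23, 15 were called under all alternatives run and 8 not under 1 or more, while 5 others gained a call and 0 reversed. The 2 largest rises and 2 largest falls were chosen among called transcripts, so their calls in the main fit were built into the count. Leaving out each replicate letter in turn gave 18161 to 27016 transcripts called, 7156 to 10131 higher and 9449 to 16885 lower, 117 to 320 that depended on genotype, 3733 to 10220 for T5 against T1, 19174 to 26439 for T5 against T3, and 8125 to 10818 short of SD, 367 to 663 past it, 4136 to 8061 outside on the LD side and 4114 to 7474 apart from SD only. The count that depended on genotype was 820 with no filter, 319 with a minimum of 1 RPKM, 71 with T5 fitted alone, 19 without *G. soja*, 202 without the 2 libraries that stand apart and 157 without all 5 doubtful ones, and these last alternatives, like the markers between pairs of genotypes and the disjoint share of the way, were chosen after seeing the data. With the 7 genotype differences as replicates 5774 were called for T5 against T1. Disjoint SD samples gave 7993, 1458, 3714 and 13078 transcripts in the 4 classes. The marker rule fixed earlier needed 5 markers of a genotype, which only Williams 82 (21) and *G. soja* (182) had. It could not find a swap among Clark and the near isogenic lines. It found 0 libraries against their label and gave no value. With a replicate block (letter within photoperiod and time point as a random effect) 19245 transcripts were called, 1188 depended on genotype, 3430 differed between T5 and T1, and 375 were past the SD level. The letters did not pair the samples, since SD and LD-SD libraries of the same genotype and letter deviated together at a mean r of -0.043. Same-letter libraries of different genotypes within SD did so at 0.245, so standard errors, and p-values of the exact tests over genotypes, may be too small. The causes were not tested, and read numbers at or close to the floor of 3 set the limit for *E1*, *GmCOL10a* and *GmCOL10b*.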
